A study of Mus musculus with 36 samples.

Results

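The 4 genes described here, Arntl, Clock, Npas2 and Rora, encode activators of the circadian clock. They were taken by symbol, as 4 of the 49585 features in the deposited tables, and all 4 passed the filter on low values in every fit. Total RNA of whole bladder from C57BL/6 mice was sequenced in 36 libraries. All animals had both adrenal glands removed (bilateral adrenalectomy), so all 36 libraries come from mice without their main source of corticosterone; no library of a sham-operated mouse was analysed here. In 18 libraries (CORT) the mice were given corticosterone during their inactive phase once they had recovered from surgery, and in the other 18 (vehicle) they were given vehicle. Every treatment is represented by 3 libraries per time label, the labels being 4, 8, 12, 16, 20 and 24 h. The sample descriptions do not give a dose, an age or what time zero is, so hours below are on the label clock. They also do not say whether the 3 libraries of a group came from different mice, and the p-values below therefore rest on variation among libraries that may in part be technical. The series title names glucocorticoid control of the bladder clock and of the daily urination pattern as the subject.

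In the mammalian clock, BMAL1, the product of Arntl, pairs with CLOCK or with its close relative NPAS2 and binds DNA elements called E-boxes. The pair drives transcription of its own repressors, the Per and Cry genes, and of Nr1d1 and Nr1d2, which encode the nuclear receptors REV-ERB alpha and beta. The REV-ERBs and the ROR receptors, among them the products of Rora and Rorb, compete for ROR response elements (ROREs): RORs activate and REV-ERBs repress, and Arntl is the best-known target of this second loop. In peripheral tissues Arntl and Npas2 transcripts usually cycle widely, in antiphase to Nr1d1 and Per genes, whereas Clock and Rora transcripts usually cycle little. Glucocorticoids are a known time cue for peripheral clocks.

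Both kinds of element can be read in the promoters of these genes. The windows searched run from 250 bases before to 50 after each RefSeq start (build GRCm38.p6), on both strands. The RORE core searched for, AAAG followed directly by TAGGTNA, was found in 20 of 32851 windows (0.0609%) and 19 of 27025 genes (0.0703%). Among 18 clock genes with a window Arntl was the 1 gene that held it. These letters are those of the 2 Arntl copies printed below, with N where the copies differ, so the match in Arntl is no test. ROREs of other letters were not searched for, apart from the half-site below. Arntl, on chromosome 7 at 113207465 to 113314126 on the plus strand, has 2 such copies; its 2 windows overlap, and the downstream window covers both. They lie at chr7:113207485-113207514 and chr7:113207528-113207557, plus strand, within an annotated first exon (113207465 to 113207644). They are printed because ROREs are the known route by which RORs and REV-ERBs act on Arntl, with the RORE core in capitals.
Arntl RORE site 1: ggagcggattggtcggAAAGTAGGTTAgtg
Arntl RORE site 2: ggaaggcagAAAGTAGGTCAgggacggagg
The shorter half-site TAGGTCA, which the second Arntl copy contains, was in 856 windows (2.61%), those of 802 of 27025 genes (2.97%). Of the 18 clock genes, Arntl and Nfil3 held it. Nfil3, a transcriptional repressor whose profile is among the most like that of Arntl below, carries it on the opposite strand, so that it reads TGACCTA in the window at chr13:52981033-52981062, minus strand, inside an exon.
Nfil3 RORE half-site: gcgctcggaacTGACCTActaacacacatc
The E-box CACGTG was in 2349 windows (7.15%), those of 2187 of 27025 genes (8.09%). Of the 18 clock genes, 5 held it, Bhlhe41, Ciart, Cry1, Per1 and Tef. Those of Tef (chr15:81802534-81802563, plus strand, in an exon) and Bhlhe41 (chr6:145865556-145865585, minus strand) are shown because the profiles of both genes run opposite to that of Arntl. Per3, Dbp and Nr1d2 run opposite to it as well and held no E-box of these letters in their windows. The E-box is in capitals.
Tef E-box: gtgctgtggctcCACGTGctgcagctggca
Bhlhe41 E-box: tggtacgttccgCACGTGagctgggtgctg
The palindromic glucocorticoid response element, AGAACA and TGTTCT with NNN between them, was in 3 windows (0.00913%), none of them of a clock gene. Clock, Npas2 and Rora held none of the motifs searched in their windows. A match or its absence concerns the letters in these windows alone.

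The deposited values are quantile-normalized signals per gene, brought here to 1 common scale for all 36 libraries. Mean total counts by treatment and replicate number lay between 9591304 and 12311337. Pairs of libraries correlated at 0.970 to 0.989 over features, hardly more within a group (mean 0.983) than between groups (0.982). Bladder markers were present in every library: the summed value of 6 urothelial markers was 34481 to 86413 and that of 5 smooth muscle markers 127390 to 342680, with no listed marker at 0 throughout. Of these lists, fibroblast markers were called lower in CORT over the day for 2 of 4 genes (median log2 difference -0.30, limma). Endothelial markers were called lower for 3 of 3 (median -0.38). Of all features, 2.82% were called lower. Calls in either direction fell from 734 features to 29 without replicate 3 and to 1 without replicate 2. Under the other library names described below there were 0. The part of these markers in the results below was not tested. The protocol text describes RNA from blood with globin removal although the stated source is bladder. The 5 erythroid markers summed to 973 to 6403. In bulk tissue, a change in the number of cells of a type and a change of RNA per cell cannot be told apart. In addition, the names of 8 replicate 2 libraries are at odds. In the authors' tables of selected genes over 18 libraries, the replicate 2 columns of 4, 8, 16 and 20 h in both treatments hold another library than the same name in the full tables. For 4 of the 8 the conflict crosses treatments: the columns named CORT 4 and 8 h hold the vehicle 16 and 20 h libraries of the full tables, and those named vehicle 4 and 8 h hold the CORT 16 and 20 h libraries. The other 4 change time only. A difference between treatments under the other names is therefore one between partly exchanged sets of libraries. The full tables' names are used below, and the tests of rhythm of the 4 genes and the Arntl contrast at 12 h are also given with the other names and without these libraries. The replicate 3 samples carry no time tag, so their times come from their titles.

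Per kilobase of annotated exon, the levels of the 4 genes fell into 2 tiers. Clock (chromosome 5, 76209868 to 76304792, minus strand) had a median of 155 normalized units per kb in CORT and 150.2 in vehicle, and Rora (chromosome 9, 68653786 to 69388246, plus strand) had 117 and 116. Npas2 (chromosome 1, 39193731 to 39363236, plus strand) was lower, at 36.8 and 38.9, and Arntl at 24.0 and 27.9. Arntl2, a paralogue of Arntl, was below that second tier at 11.1 and 10.7, and Rorb was at 1.29 and 1.30.

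Arntl cycled in the bladders of vehicle mice. At 4 h its normalized values were 254, 341 and 334 in replicates 1, 2 and 3. They fell to 83.2, 110.1 and 109 at 8 h and to 39.6, 74.4 and 85.8 at 12 h. By 16 h they were 136, 130.1 and 168. Every library at 16 h thus lay above every library at 12 and 8 h, and below every library at the remaining labels. At 20 h the values were 251, 273 and 299, and at 24 h they were 279.8, 346 and 366. Ordered by mean, 24 h (331 ± 45.1, SD, n = 3), 4 h (310 ± 48.3) and 20 h (274 ± 23.8) overlapped their neighbours, 16 h (145 ± 20.4) overlapped neither side, and 8 h (101 ± 15.3) and 12 h (66.6 ± 24.1) overlapped each other. A 24 h cosine fitted to the 18 vehicle libraries had an amplitude, mean to peak, of 1.21 ± 0.12 (SE, log2), which is a 5.37-fold range from trough to peak, with the peak at 23.7 h (95% interval 22.9 to 24.5, counted past 24). Its adjusted p was 0.000135 (limma F test, Benjamini-Hochberg over 17945 features), and a test of any shape over the 6 labels, which 0.396% of features passed, gave 0.00142. Among the 4 genes it was the 1 called, where 0.429% of all features (77) were. The call was kept when any single library was left out. It held without replicate 1 (adjusted p = 0.00239) and without replicate 3 (0.0422) but not without replicate 2 (amplitude 1.23, adjusted p = 0.0673, limma). Without the 8 libraries named in 2 ways the amplitude was 1.20 with an adjusted p of 0.00950, and under the other names it was 0.97 with an adjusted p of 0.995 (limma), a naming under which 0 of 17936 features were called (641 with an unadjusted p under 0.05). Arntl is in both of the authors' deposited tables of vehicle genes selected with limits of 2-fold and p 0.05. The first covers replicates 1 and 2; the second carries the other names and so holds, by the full tables' names, 2 CORT libraries in place of 2 vehicle ones. Neither is independent of the libraries fitted here.

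Under CORT the order of the labels was different and the libraries of a label lay further apart. Arntl values at 4 h were 166, 83.1 and 83.5, and at 8 h they were 86.1, 188 and 87.4. At 12 h, the lowest label in vehicle, they were 265, 353 and 278, the highest mean of this treatment. They were 149, 271 and 173 at 16 h. Replicate 2 was thus the highest library at 8, 12 and 16 h, and it was so again at the last 2 labels. The values were 168, 283 and 195 at 20 h and 71.3, 211 and 196 at 24 h. From 12 h (299 ± 47.5, SD, n = 3) through 20 h (216 ± 59.9), 16 h (198 ± 64.8), 24 h (159.6 ± 76.8) and 8 h (121 ± 58.7) to 4 h (111 ± 47.7), each label overlapped the next in order. The fitted amplitude was 0.61 ± 0.19 with a peak at 15.7 h (13.2 to 18.2). This did not pass (adjusted p = 0.746, limma). Neither did any of the 17921 features tested in CORT (0% called), of which 1055 had an unadjusted p under 0.05. The test of any shape called 3 features there (0.0167%), none of them among the 4 genes. With the other names the amplitude was 0.32 (adjusted p = 1.00) and without the 8 libraries 0.53 (adjusted p = 0.9995, limma). Arntl is in neither of the authors' deposited tables of selected CORT genes, of which the one over 18 libraries holds 2 vehicle libraries by the full tables' names. The SD among libraries of the same label was 0.56 on the log2 scale in CORT and 0.30 in vehicle, a ratio of 1.86. The median over all features was 0.25 and 0.24 with a ratio of 1.04. This was not particular to Arntl: over the clock genes examined the ratio ran from 0.80 to 4.11 (Rorb, a low gene), with 2.40 for Nr1d1. It was 1.07 for Npas2, 1.30 for Clock and 1.51 for Rora.

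**Figure D1:**
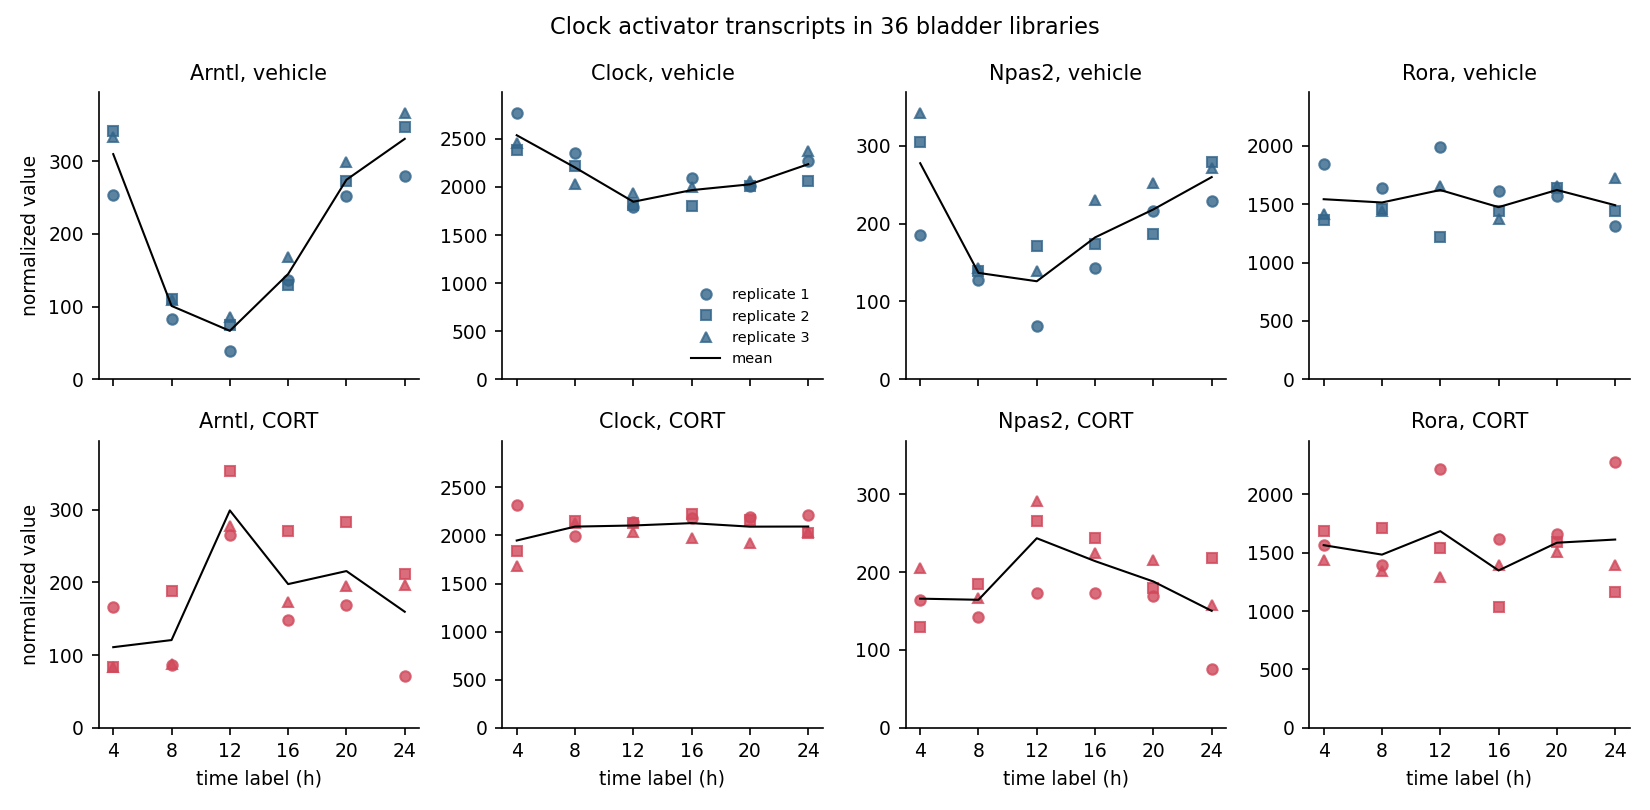
Normalized value (vertical axis, linear, from 0) of the 4 genes against the time label in hours in vehicle (top, blue) and CORT (bottom, red). Each point is 1 library, its shape gives the replicate number and the line joins the means of 3 libraries; Arntl and Npas2 are lowest at 12 h in vehicle and highest by mean at 12 h in CORT, while Rora is level.

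The pattern of Arntl over the day differed between treatments. The test of the difference in rhythm over all 36 libraries gave an adjusted p of 0.000731 (limma), with the 2 fitted waves apart by 1.60 on the log2 scale at their widest, each centred on its own mean; 19 of 17867 features (0.106%) were called, and Arntl was the 1 of the 4 genes among them. The amplitude was lower in CORT by 0.60 ± 0.23 (SE) and the peak 7.93 h earlier on the label clock (95% interval 5.64 to 10.2 h). That interval uses a CORT peak whose own rhythm did not pass the test. The difference of any shape, called for 0.134% of features, had an adjusted p of 0.00226. Leaving out any 1 library kept the call; leaving out replicate 2 (size 1.54, adjusted p = 0.233) or replicate 3 (1.74, adjusted p = 0.147) ended it, and without replicate 1 it held (1.55, adjusted p = 0.0249, limma). Without the 8 libraries named in 2 ways the size was 1.53 with an adjusted p of 0.0473, and under the other names 1.25 with an adjusted p of 1.00, with 0 features called (443 with an unadjusted limma p under 0.05).

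At single labels, Arntl was called at 12 h, where it was higher in CORT than in vehicle. The lowest CORT library at 12 h (265) was above the highest vehicle library (85.8). The difference was 2.21 ± 0.36 on the log2 scale, 4.63-fold, with an adjusted p of 0.00560 (limma); 8 features in all (0.0448%) were called at 12 h, and the 2 treatments did not overlap for 6.49% of features. The difference stayed between 1.88 and 2.47 whichever library or replicate was left out. The call ended without CORT replicate 2 at 12 h (adjusted p = 0.0955), without vehicle replicate 1 at 12 h (0.126), and without replicate 2 (0.380) or replicate 3 (0.678) throughout. Without the libraries named in 2 ways the adjusted p was 0.0331, and under the other names, which leave the 12 h libraries in place, it was 0.438 (limma). At the other end of the day the sign was the opposite, without a call. At 4 h each CORT library was below each vehicle library and the ratio was 0.344 (-1.54 ± 0.36, adjusted p = 0.0720), where 0.162% of features were called and 13.4% did not overlap. The same order held at 24 h with a ratio of 0.439 (-1.19 ± 0.36, adjusted p = 0.330), where 0.0336% were called and 10.9% did not overlap. The differences at 8, 16 and 20 h were 0.17, 0.41 and -0.38, with overlapping libraries. Averaged over the 6 labels these cancelled, with a difference of mean log2 values of -0.05 ± 0.15 (95% interval -0.35 to 0.25, adjusted p = 0.891, limma). The day means of the values themselves were 184 in CORT and 204 in vehicle.

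**Figure D2:**
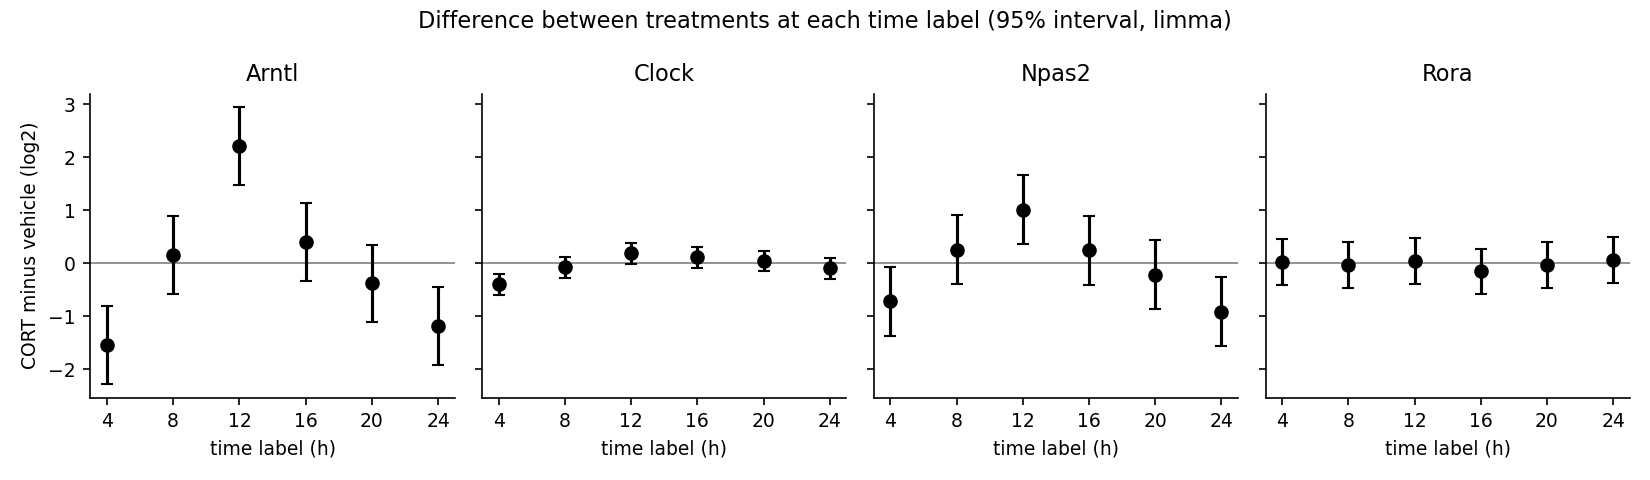
Difference between CORT and vehicle (log2, vertical axis) at each time label in hours for the 4 genes; points are limma contrasts of 3 against 3 libraries and bars are 95% intervals not adjusted for the number of tests. Arntl runs from -1.54 at 4 h to 2.21 at 12 h and back to -1.19 at 24 h, Npas2 follows at a smaller size, Clock lies between -0.39 and 0.19, and Rora between -0.15 and 0.06.

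Npas2, the alternative partner of BMAL1, traced the same outline in vehicle without passing the test. Its values at 4 h were 186, 305 and 342, and at 12 h they were 68.4, 171 and 139. At 24 h they were 229, 279 and 271. The 12 h libraries were below all 4 h and 24 h libraries, by a narrow margin at 4 h. The libraries of 8 h (128, 139 and 143), 16 h (142, 174 and 231) and 20 h (216, 187 and 252) lay between 128 and 252. In order of their means, from 4 h (278 ± 81.6, SD, n = 3) over 24, 20, 16 and 8 h to 12 h (126 ± 52.3), each label overlapped the next. The fit had an amplitude of 0.59 ± 0.12, a 2.25-fold range, with its peak at 23.9 h (22.2 to 25.6, counted past 24), close to that of Arntl, and an adjusted p of 0.0836 (limma). It passed with limma's intensity trend, with an adjusted p of 0.0452, and with the replicate number as a block (adjusted p = 0.0357, limma). It did not pass without replicate 1 (adjusted p = 0.295), 2 (0.447) or 3 (0.439, limma). Nor did it when any single library was left out (adjusted p 0.0680 to 0.139, limma). Under the other names the amplitude was 0.48 (adjusted p = 1.00) and without the 8 libraries 0.59 (adjusted p = 0.410, limma).

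In CORT, Npas2 was highest at 12 h, at 173, 265 and 292, and the remaining labels held 75.2 to 244. Replicate 1 at 24 h was far below its companions, at 75.2 against 218 and 158. Each label again overlapped the next in the order of means, from 244 ± 62.2 (SD, n = 3) at 12 h to 150.3 ± 71.6 at 24 h. The amplitude was 0.34 ± 0.12 with a peak at 13.9 h (10.985 to 16.9) and an adjusted p of 0.835 (limma). With the other names it was 0.22 and without the 8 libraries 0.30. Between treatments, Npas2 was 2.01-fold higher in CORT at 12 h (1.01 ± 0.32, adjusted p = 0.647) and had a ratio of 0.533 at 24 h (-0.91 ± 0.32, adjusted p = 0.475), both without overlap. At 4 h the difference was -0.72 with overlapping libraries. The test of a difference in rhythm gave an adjusted p of 0.0848 (limma) with the fitted waves 0.89 apart. Leaving out CORT replicate 2 at 24 h, vehicle replicate 2 at 12 h or vehicle replicate 3 at 16 h brought it to 0.0397, 0.0456 and 0.0371. The other 33 of 36 removals of a single library left it uncalled, with an adjusted p up to 0.257 (limma). Without replicate 1, 2 or 3 throughout, the adjusted p was 0.242, 0.818 and 0.812 (limma). With the replicate number as a block the adjusted p was 0.00440 (limma). Under the other names the waves were 0.70 apart (adjusted p = 1.00) and without the 8 libraries 0.85 (adjusted p = 0.689, limma). Over the day the mean log2 values differed by -0.05 ± 0.13 (-0.32 to 0.21, adjusted p = 0.872, limma). The day means of the values were 188 in CORT and 200.04 in vehicle.

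Clock, the main partner of BMAL1, was abundant and nearly level. In vehicle its 4 h values of 2766, 2385 and 2462 were above all other vehicle libraries. The lowest values were those of 12 h, at 1790.0, 1808 and 1939.8, and of replicate 2 at 16 h, at 1807. The other labels held 1998 to 2374, apart from that library. The means ran from 2537 ± 201 (SD, n = 3) at 4 h to 1846 ± 81.8 at 12 h, and below 4 h each label overlapped the next in order. The fitted range was 1.31-fold, with an amplitude of 0.19 ± 0.04 and a peak at 3.09 h (1.47 to 4.71), later than that of Arntl in the same libraries. Its adjusted p was 0.0699 (limma). It passed with limma's intensity trend (0.0331) and among features with a mean of at least 10 (0.0430). It also passed without vehicle replicate 2 at 24 h (0.0494) or vehicle replicate 1 at 16 h (0.0455). The other 16 of 18 removals of a single library left Clock uncalled (adjusted p up to 0.155, limma). So did leaving out replicate 1 (0.291), 2 (0.480) or 3 (0.451) throughout. With the other names its amplitude was 0.14 (adjusted p = 1.00) and without the 8 libraries 0.19 (adjusted p = 0.463, limma).

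Under CORT the 18 Clock values lay between 1682 and 2321, both of these at 4 h, and the means of all 6 labels between 1948 and 2128, each overlapping the next. The amplitude was 0.05 ± 0.04, with an adjusted p of 0.976 (limma), and it was 0.03 under the other names and 0.02 without the 8 libraries. At 4 h the CORT libraries (2321, 1840.1 and 1682) were below the vehicle libraries, a ratio of 0.762 (-0.39 ± 0.09, adjusted p = 0.0959). At 12 h they were above them by 0.19 without overlap, with an adjusted p of 1. The test of the difference in rhythm gave an adjusted p of 0.253 with the fitted waves 0.24 apart, against 0.16 under the other names and 0.21 without the 8 libraries, where it did not pass either. The day means of the values were 2076 in CORT and 2136 in vehicle. On mean log2 values the difference was -0.04 ± 0.04 (95% interval -0.11 to 0.04, adjusted p = 0.652, limma).

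Rora, which encodes the receptor ROR alpha, showed no pattern over the labels in either treatment. In vehicle the 18 values had a low of 1219.7, a median of 1517 and a high of 1991. In CORT they had a low of 1036, a median of 1526 and a high of 2279. The CORT spread came from a few libraries: replicate 1 was far above its companions at 12 h (2216 against 1543 and 1296) and at 24 h (2279 against 1165 and 1396). Label means ran from 1475 to 1622 in vehicle and from 1348 to 1685 in CORT, each overlapping the next. The amplitudes were 0.02 ± 0.06 in vehicle (adjusted p = 0.990, limma) and 0.05 ± 0.09 in CORT (adjusted p = 0.993), too small for a peak time to be set. The other names gave 0.04 and 0.07, and without the 8 libraries 0.02 and 0.06. The difference in rhythm had an adjusted p of 1.00 in the main naming and under both alternatives, and at no label did the treatments fail to overlap. The day means of the values were 1547 in CORT and 1545 in vehicle. The difference tested, that of mean log2 values, was -0.01 ± 0.09 (adjusted p = 0.963, limma). Its 95% interval of -0.19 to 0.16 reaches no further than 0.19 on the log2 scale in either direction.

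Over the 24 contrasts of the 4 genes at 6 labels, then, 1 was called, Arntl at 12 h. The treatments did not overlap at 3 of 6 labels for Arntl, 2 for Clock, 2 for Npas2 and 0 for Rora. At 16 and 20 h no member was called or free of overlap, where 0.0112% and 0% of features were called (at 20 h 1073 had an unadjusted limma p under 0.05) and 6.26% and 14.6% did not overlap. The same was true at 8 h, the label with most features called (0.795%, with 23.2% not overlapping). For the mean over the day 0 of the 4 genes were called, against 4.11% of all features (1.29% higher and 2.82% lower in CORT); their unadjusted limma p-values were above 0.05 too. With the values as deposited, without the common scale, these 4 day differences had the opposite sign, at 0.01 to 0.05.

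Arntl2, which can take the place of BMAL1, had an amplitude of 0.43 ± 0.09 with a peak at 12.2 h and an adjusted p of 0.0883 in vehicle, far in time from the peak of Arntl. By the test of any shape it passed there (adjusted p = 0.0361, limma). In CORT it had an amplitude of 0.12 ± 0.10 (adjusted p = 0.976, limma). Rorb was near the floor, with 10.4 to 19.3 normalized units in vehicle and 4.56 to 50.9 in CORT, and passed no test.

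The other genes of the loop place these peaks. In vehicle 9 of 10 repressors and 3 of 4 outputs of the PAR bZIP and Nfil3 group were called, beside 0.429% of all features. In CORT 0 of either list was called, and 0 of all 17921 features tested. For the difference in rhythm, calls in these lists were 8 of 10 and 2 of 4, beside 0.106% of all features. Under the other names, where no feature at all was called, these counts were 0. Nr1d1 peaked at 7.88 h in vehicle, between the peak and the trough of Arntl, and Nr1d2 at 10.1 h. Cry1, a repressor that itself has ROREs as well as E-box control, peaked at 18.6 h. Nfil3, which like Arntl is a known ROR and REV-ERB target and whose half-site is printed above, peaked at 21.7 h with an amplitude of 0.81 ± 0.15 (adjusted p = 0.0439, limma). The median amplitude of the 4 activators was 0.39 in vehicle and 0.19 in CORT, beside 0.12 and 0.10 over all features tested.

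**Figure D3:**
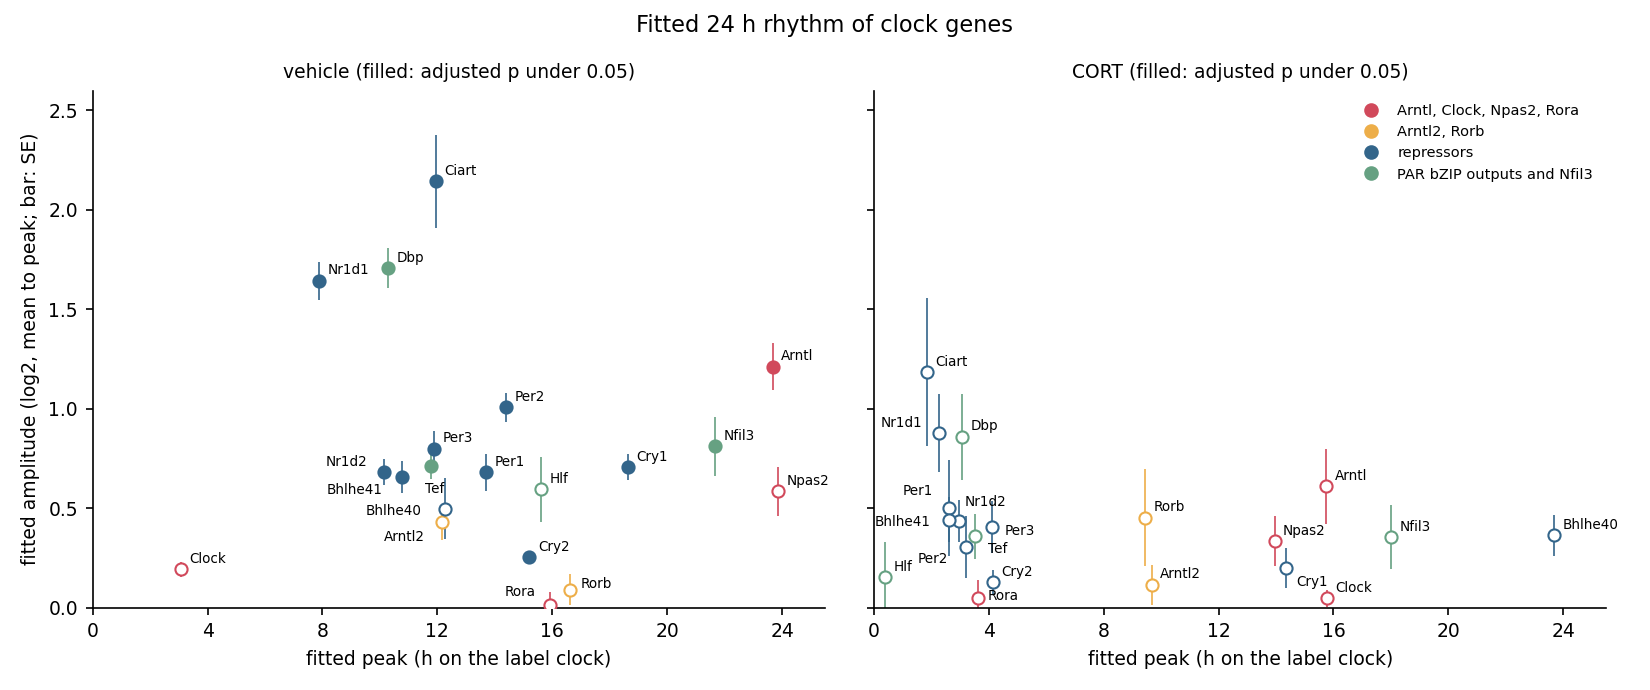
Fitted amplitude (log2, mean to peak, with SE) against fitted peak time on the label clock in vehicle (left) and CORT (right) for the 4 genes (red), Arntl2 and Rorb (yellow), repressors (blue) and PAR bZIP outputs with Nfil3 (green); filled points have an adjusted p under 0.05. In vehicle Arntl is the filled red point, at 1.21 and 23.7 h, with Npas2 open at the same time; no point is filled in CORT, so peak times there are poorly set.

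Libraries of the same label differed from each other, and the genes were compared on these differences alone. After the group means were removed, Arntl and Npas2 correlated over the 18 vehicle libraries at r = 0.858 (permutation within groups, two-sided, p = 0.00522, adjusted over 8 relations 0.0418; Spearman rho 0.843, p = 0.00300, adjusted 0.0240). Without the 2 libraries farthest from the median of Arntl, the call was lost (permutation, adjusted p = 0.255), and r was 0.717 over the 16 libraries left. Without replicate 1 throughout it was 0.441, and 12 of 18 removals of a single vehicle library ended the call, with r between 0.690 and 0.890. Under the other names r was 0.815 (permutation, adjusted p = 0.00144). If the full tables' names are right, those groups mix times and treatments, and this r includes such differences. It is therefore no check of the same-label relation. Without the 8 libraries r was 0.885 (permutation, adjusted p = 0.101). Over the CORT libraries r was 0.650 (p = 0.0420, adjusted 0.168; rho 0.579, adjusted 0.140), and without the 2 farthest 0.483. Replicate 1 was the lowest of 3 libraries at 5 of 6 labels for both genes in both treatments. The permutation treats the labels as independent. A difference shared by replicate number over the labels would therefore make its p-values too small. Arntl and Clock did not move together among libraries of the same label, with r = -0.06 in vehicle and 0.29 in CORT. The values for Rora were -0.52 and -0.47, and for Nr1d1 -0.39 and -0.55, none of which passed (permutation, adjusted p between 0.211 and 0.831 over these and Clock; rho between -0.51 and 0.19, adjusted p between 0.257 and 0.816). For Rora, replicate 1 was the highest of 3 at 4 of 6 labels in each treatment.

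**Figure D4:**
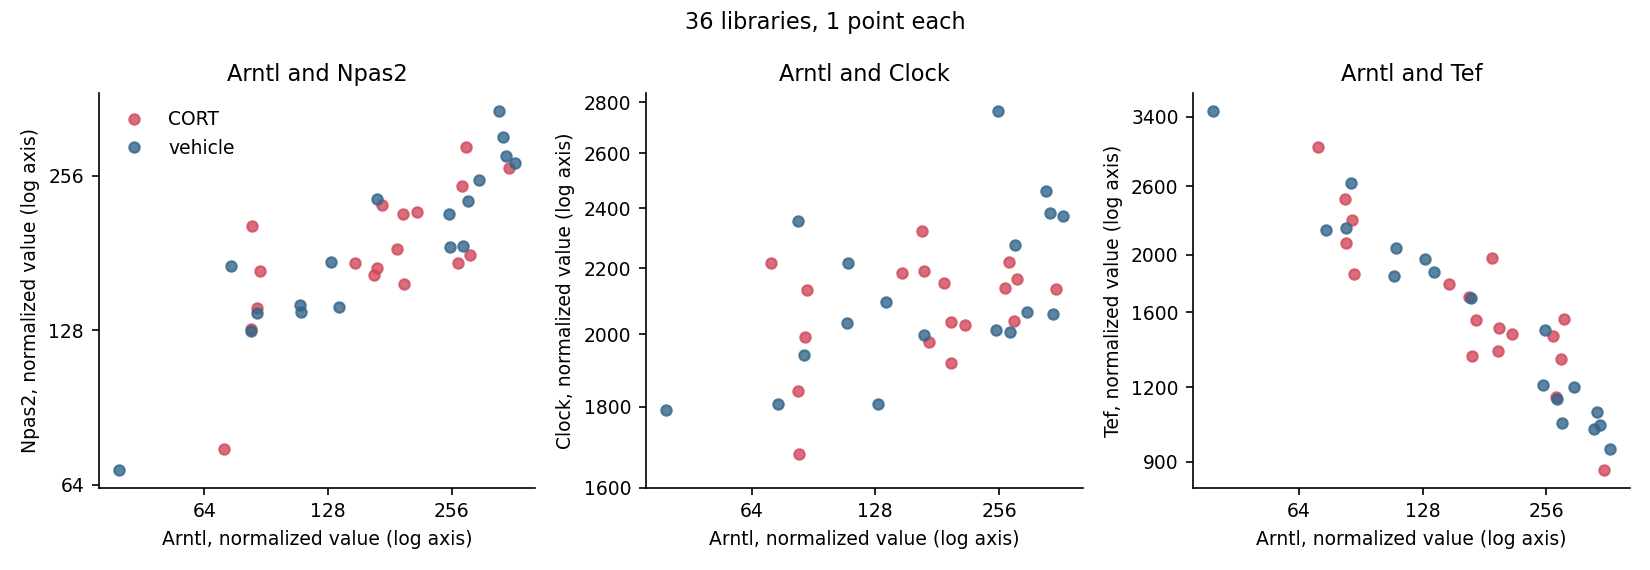
Normalized value of Npas2, Clock and Tef against that of Arntl (log axes) in 36 libraries, 1 point each, CORT in red and vehicle in blue. Npas2 rises with Arntl (r = 0.83 on log2 values), Tef falls with it (-0.94), and Clock covers a narrow range.

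Across all 36 libraries, time and treatment included, the feature most like Arntl among 12825 with a mean of at least 20 was Npas2 (r = 0.833 on log2 values). Rasl11a (0.802), Leo1 (0.752), Adamts4 (0.744) and Nfil3 (0.666) followed. The most opposite were Tef (-0.938), Per3 (-0.904), Bhlhe41 (-0.885), Dbp (-0.878) and Nr1d2 (-0.855), all of them clock outputs or repressors. These correlations share libraries and scale and are descriptions. For Npas2 the nearest were Arntl, Rasl11a (0.695) and Leo1 (0.681). For Clock, Rnf144a (0.677) and Fam49a (0.668) were among the nearest. Those of Rora were of another kind: Sgca (0.871), Pde5a (0.868) and Sspn (0.865), of which Sgca and Sspn encode proteins of the muscle dystrophin complex and Pde5a a phosphodiesterase of smooth muscle. Rora also followed the summed smooth muscle markers (0.63) and striated muscle markers (0.66) and ran against the urothelial ones (-0.74) over the 36 libraries, a comparison chosen after the values had been seen. For Arntl the same 3 values were -0.02, -0.01 and 0.05, for Clock 0.41, 0.30 and -0.46, and for Npas2 -0.39, -0.29 and 0.33. With the summed leukocyte markers, r was 0.43 for Arntl, 0.17 for Clock, 0.45 for Npas2 and -0.21 for Rora. Whether the share of muscle or of another cell type in a library had a part in the spread of these genes was not tested.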

How the data were processed

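Total RNA of whole bladder was rRNA-depleted and made into directional libraries, per the labels' protocols, and reads were placed on mm10, a build named in the submitters' processing notes. The programs for alignment and counting, and any use of strand in counting, were not given in the sources used here. Whether overlapping antisense genes were counted apart is therefore not known. The authors deposited a signal per gene for 49585 features, quantile normalized over the 12 libraries of each table: every library of a table holds the same sorted values. Tables of selected genes hold log2 values of the authors' signal plus 1. All 156 value columns were matched to a sample by name. From each library's ranks a common scale for 36 libraries was rebuilt, and log2(value + 1) was analysed, after dropping any feature that was 0 in over 50% of the libraries fitted. The pseudocount makes fold changes of low genes too small.

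Tests used limma 3.58.1 in R 4.3.3 with Benjamini-Hochberg adjustment over all features at 0.05: a cosine and a sine term of 24 h within each treatment, their difference between treatments, and contrasts of 12 group means by label and over the day. Same-label correlations used 100000 permutations within groups. Scripts were tested on simulated data. Promoter windows came from RefSeq and gene positions and exon lengths from GENCODE M21 (mm10). The text names the 4 genes, the genes on the clock lists that passed a test or were set by name, and the features most like each gene by correlation; some items these rules would name are not reported here. The 4 genes, the lists and the tests were chosen with earlier results of these data known. Alternatives were another pseudocount, filter and scale, the other library names, a trend, a replicate block, a test of any shape, and leaving out libraries or replicates.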

Additional observations from a re-analysis of the deposited data

Results flagged for a closer look

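The following genes differed between treatments in their 24 h rhythm by the limma test of that difference over 36 libraries, with these adjusted p-values. Arntl had 0.000731. Among the repressors, Per2 had 0.000555, Per3 0.00272, Cry1 0.0391, Cry2 0.0300, Nr1d1 0.000245, Nr1d2 0.000590, Ciart 0.000590 and Bhlhe41 0.000993. Of the outputs, Dbp had 5.92e-05 and Tef 0.000555. Clock, Npas2, Rora, Rorb, Arntl2 and Nfil3 did not pass. None of these genes passed the rhythm test within CORT, and neither did any other of the 17921 features tested there.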

How the results depend on the processing

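Normalized values carry no single-library depth, so counting error cannot be set per value; genes at a few normalized units, such as Rorb and Ciart, are the least certain. Arntl kept its vehicle rhythm and its difference in rhythm under another pseudocount, another filter, the values as deposited, a trend and a replicate block; the calls it lost without replicate 2 or 3, without single libraries or under the other library names are given beside its results. With a pseudocount of 5, 2 features were called rhythmic in CORT. With values as deposited, 2746 features differed in day mean, the 4 genes' day differences became 0.00544 (Arntl), 0.0275 (Clock), 0.0105 (Npas2) and 0.0463 (Rora), and the vehicle correlation of Arntl with Clock became 0.0706. Under the other names, 0 features were called for the vehicle rhythm, 0 for its difference, 0 for the day mean (1434 with an unadjusted limma p under 0.05) and 0 of 24 contrasts of the 4 genes; the Rora day difference was 0.0448 and the vehicle correlation of Arntl with Clock 0.0452. Without the libraries named in 2 ways these counts were 17, 10 and 6, and Arntl with Npas2 in vehicle had r = 0.885 (permutation, adjusted p = 0.101); without the 2 libraries farthest from the median it was 0.717. With no filter, 39 features were called in vehicle, 1 in CORT and 294 for the day mean. A minimum mean of 10 gave 146 in vehicle and 1 in CORT. The intensity trend gave 160 and 1, and 2 of 24 contrasts. A test of any shape called 3 features in CORT. The cause of these changes was not tested, apart from the fewer libraries or features that some settings leave.

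Whether the replicate numbers pair the samples was not settled. Same-numbered libraries had a mean correlation of deviations of 0.0559 (lowest -0.345, over 0.1 in 62 of 198 pairs), against -0.0279 for other numbers. These correlations were low, but 30 of 36 libraries were closest to their own number, so a part shared by number may be present. With the number as a replicate block, Npas2 passed for its vehicle rhythm (amplitude 0.59, adjusted p = 0.0357, limma) and for the difference in rhythm (0.89, adjusted p = 0.00440). The block called 1 feature in CORT, 1240 for the day mean and 3 of 24 contrasts of the 4 genes.

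Leaving out 1 replicate number or 1 library gave 4 to 146 features rhythmic in vehicle, 0 to 3 in CORT, 1 to 23 with a difference in rhythm, 1 to 1282 for the day mean, and 0 to 3 of 24 contrasts. Without replicate 2 these were 4 in vehicle, 1 for the difference in rhythm and 1 for the day mean. The 146 came without replicate 1 of vehicle at 12 h and the 1282 without its replicate 2; the 3 in CORT and the 3 contrasts came without replicate 1 of CORT at 4 h. The day differences then ranged from -0.195 to 0.0938 for Arntl, -0.0702 to 0.00952 for Clock, -0.118 to 0.0177 for Npas2 and -0.0666 to 0.0508 for Rora. Same-label correlations with Arntl ranged, in CORT and vehicle, from -0.0600 to 0.590 and -0.370 to 0.699 for Clock, 0.0754 to 0.874 and 0.441 to 0.898 for Npas2, -0.683 to 0.204 and -0.844 to 0.360 for Rora, and -0.890 to -0.350 and -0.635 to -0.233 for Nr1d1.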
